A study of Homo sapiens with 6 samples.

Results

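The 10 transcripts described here encode brakes and readouts of ERK signalling, namely the phosphatases DUSP1, DUSP4, DUSP5 and DUSP6, the Sprouty proteins SPRY1, SPRY2 and SPRY4, their relatives SPRED1 and SPRED2, and the ETS transcription factor ETV5. They were chosen by gene symbol from the 24462 symbols of the count files, and all 10 were listed once and were measured in all 6 samples. PC3, a line established from a bone metastasis of human prostate cancer, was grown in medium with fetal bovine serum. Of 6 cultures, 3 received a non-targeting siRNA (si-Control) and 3 received siRNA against CITED2, a transcriptional co-regulator that binds CBP and p300 (si-CITED2). The siRNA dose was 80 nM in both groups. All samples come from 1 cell line, and no untransfected culture was analysed here. The labels do not say how many siRNA sequences against CITED2 were used, while the methods of the study list 1. The study states that the experiment was performed independently on 3 occasions, while the labels do not say what separates the replicates.

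ERK is the last kinase of the cascade that runs from receptor tyrosine kinases through RAS, RAF and MEK. Active ERK switches on genes whose products then restrain the cascade. The dual-specificity phosphatases (DUSPs, or MAP kinase phosphatases) remove phosphate from ERK or from its relatives JNK and p38, whereas the Sprouty and SPRED proteins act further upstream, between the receptor and RAF. ETV5, ETV4 and ETV1 form the PEA3 branch of the ETS factors and are transcribed in response to the same cascade, so that these transcripts are widely read as a record of ERK activity. ERK activity itself was not measured in these files.

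Library depth ranged from 19508925 to 28936374 counts, and 3 counts, taken as the smallest detectable number, corresponded to 0.104 to 0.154 CPM, which are counts divided by the library total and set to a common scale. Levels are given as normalized counts, which are counts scaled to the same effective library size. The targeted mRNA did not follow the label: CITED2 was at 859, 892 and 773 normalized counts in si-Control against 1084, 921 and 984 in si-CITED2, so that it was higher there by a log2 value of 0.24 (SE 0.074, adjusted p = 0.0363, edgeR quasi-likelihood test). The adjusted p rose to 0.0536, 0.141, 0.154 and 0.0846 without si-Control replicate 1, si-Control replicate 3, si-CITED2 replicate 1 and si-CITED2 replicate 3, and to 0.0518 with library size in place of TMM scaling. The study checked the knockdown at the protein level, by immunoblot, and protein is not in these files. The groups are therefore called by their labels throughout, and every direction below means libraries labelled si-CITED2 against libraries labelled si-Control. The summed level of 4 genes abundant in PC3 (KRT8, KRT18, EPCAM, VIM) was 2574 to 2742 CPM in si-Control against 3005 to 3214 CPM in si-CITED2. Of these, KRT8, KRT18 and VIM rose, while EPCAM fell from 2798 ± 139 to 2225 ± 182 normalized counts (SD, n = 3, adjusted p = 0.00110, edgeR). The marker lists of other cell types had sums of 136 to 147 CPM in si-Control against 124 to 147 CPM in si-CITED2 (5 leukocyte genes, of which CD68 made up most and PTPRC and CD3E had at most 2 counts in a sample), 0.4995 to 0.830 and 0.527 to 0.619 CPM (3 endothelial genes), and 0.0342 to 0.200 and 0.325 to 0.619 CPM (3 fibroblast genes). The higher fibroblast sum came from PDGFRA, with 1 to 2 counts in a si-Control sample and 7 to 11 in a si-CITED2 sample. DCN and LUM had at most 2 counts in any sample. Whether these differences take part in the results below was not tested. In bulk RNA, fewer cells of a kind and less RNA per cell cannot be told apart.

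The ERK feedback transcripts did not move as a block. In si-CITED2, DUSP1, DUSP4, DUSP6, SPRED1 and ETV5 rose, DUSP5 and SPRY2 fell, and SPRY1, SPRY4 and SPRED2 did not pass the test. Thus 5 of the 10 were higher and 2 were lower at an adjusted p under 0.05 (edgeR quasi-likelihood test, Benjamini-Hochberg over all 16314 genes tested), where 17.4% of all tested genes passed, 9.36% higher and 8.09% lower. The 3 samples of each group did not overlap for 9 of the 10, with 6 higher and 3 lower in si-CITED2, against 16.4% and 16.1% of all tested genes (32.5% in either direction). All 10 transcripts passed the filter on low counts. Their median log2 fold change was 0.17 and their median absolute log2 fold change was 0.37, while the medians over all tested genes were -0.00137 and 0.14. The 10 were chosen with earlier results of these data known, and the tested genes were not matched to them by count level. The counts and medians beside those of all tested genes are therefore a description only. With 3 samples a group, an exact permutation test of a single gene cannot give a two-sided p below 0.1, so the adjusted p-values rest on the spread shared across genes in the edgeR fit.

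**Figure D1:**
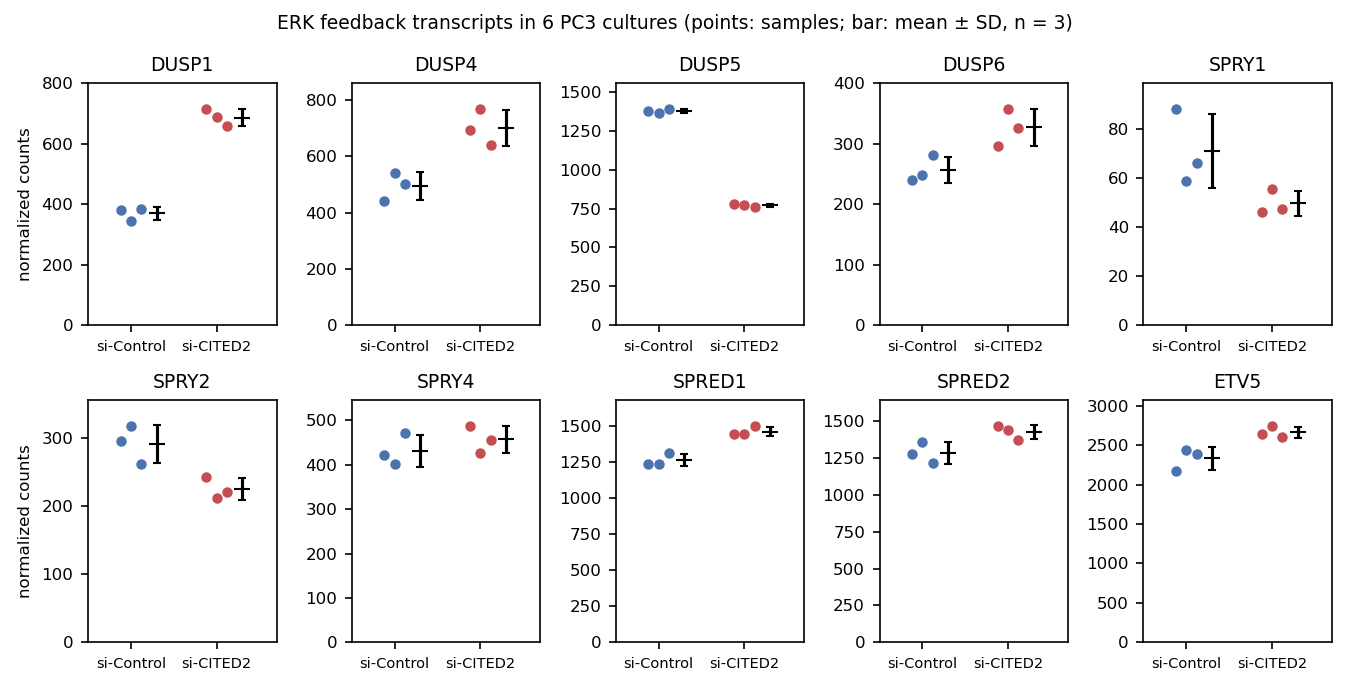
Normalized counts (vertical axes, starting at 0) of the 10 ERK feedback transcripts in the 3 si-Control (blue) and 3 si-CITED2 (red) samples, with the mean and SD of each group in black. DUSP5 fell from a mean of 1378 to 772 and DUSP1 rose from 369 to 687 with no overlap between the groups, whereas the samples of SPRY4 overlapped.

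Among the phosphatases, DUSP5 and DUSP1 moved in opposite directions. DUSP5 is a nuclear phosphatase that acts on ERK and not on JNK or p38, and the gene lies at chr10:110497838-110511544 on the plus strand (GRCh38, GENCODE 29). Its level was 1378, 1365 and 1391 normalized counts in si-Control against 782, 772 and 763 in si-CITED2. Every si-CITED2 sample was well below every si-Control sample, and the SD was 0.919% and 1.26% of the mean in the 2 groups. The log2 fold change was -0.84 (SE 0.057, adjusted p = 1.91e-08, edgeR), which leaves 0.560 of the si-Control level. By p-value DUSP5 ranked 106 among the 16314 tested genes.

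DUSP1, also called MKP-1, is a nuclear phosphatase that acts on p38 and JNK as well as ERK, and its gene lies at chr5:172768090-172771195 on the minus strand. DUSP1 was measured at 379.5, 345 and 384 normalized counts in si-Control and at 715, 687 and 657 in si-CITED2. The lowest si-CITED2 sample was above the highest si-Control sample by more than the SD of either group (21.0 and 28.9). The log2 fold change was 0.90 (SE 0.079, adjusted p = 3.84e-07, edgeR), or 1.86-fold. The sequence before the DUSP1 start is shown because DUSP1 had the strongest rise of the 10 and because a cyclic AMP response element is the element best known in this promoter. It is the 250 bases upstream of the RefSeq start (chr5:172771196-172771445, minus strand, GRCh38.p14), and the capitals mark the only match to TGACGTCA, the palindromic form of that element, 118 to 125 bases before the start:
DUSP1 upstream: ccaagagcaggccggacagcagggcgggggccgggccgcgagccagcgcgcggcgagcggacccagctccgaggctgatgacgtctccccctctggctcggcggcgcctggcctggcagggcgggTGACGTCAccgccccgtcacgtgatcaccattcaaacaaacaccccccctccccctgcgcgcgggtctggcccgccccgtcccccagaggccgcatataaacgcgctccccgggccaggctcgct

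The letters TGACGTCA were present in 1.65% of the 35116 RefSeq promoter windows of this length. The DUSP1 window also held 4 matches to GGGCGG or its complement (the GC box, present in 42.6% of all windows). It held none to TGANTCA (AP-1), CCGGAAG (an ETS site), GTCTAGAC (a palindromic SMAD element) or the CArG box of SRF. A match is a run of letters and was not tested for binding.

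DUSP4 and DUSP6 rose with DUSP1, by smaller amounts. DUSP4, a nuclear phosphatase of ERK and JNK also called MKP-2, was at 443, 542 and 502 normalized counts in si-Control and at 693, 769 and 642 in si-CITED2. The groups were separate, and the log2 fold change was 0.50 (SE 0.089, adjusted p = 0.000727, edgeR). DUSP6, or MKP-3, holds ERK in the cytoplasm and dephosphorylates it, and its gene lies at chr12:89347232-89353271 on the minus strand. DUSP6 was at 240.0, 248 and 281 normalized counts in si-Control and at 296, 357 and 326 in si-CITED2. Here the highest si-Control sample came close to the lowest si-CITED2 sample. The log2 fold change of DUSP6 was 0.36 (SE 0.11, adjusted p = 0.0278, edgeR). This call was lost without si-Control replicate 1 (adjusted p = 0.0955), si-Control replicate 2 (0.114), si-CITED2 replicate 2 (0.151) or si-CITED2 replicate 3 (0.0668). An antisense gene, AC024909.2, shares 1875 exonic bases with DUSP6 in GENCODE 29, and whether the counting used strand is not given in the sources used here.

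The difference between DUSP1 and DUSP5 was also read within each sample, where library scaling cancels. Levels of different genes are compared only per length, as normalized CPM per kilobase of annotated exon. On this scale the log2 ratio of DUSP1 to DUSP5 was -1.49, -1.61 and -1.49 in si-Control against 0.24, 0.20 and 0.16 in si-CITED2. DUSP5 was thus the more abundant of the pair in every si-Control sample and DUSP1 in every si-CITED2 sample (difference of the means 1.73, exact permutation test, two-sided p = 0.1, the smallest possible). Which of the pair is higher in si-CITED2 depends on the division by length: with counts not divided by length the ratio there was -0.13, -0.17 and -0.21, so that DUSP5 stayed above DUSP1, while the shift between the groups is the same on either scale. The log2 ratios to DUSP5 shifted by 1.34 for DUSP4 and by 1.18 for DUSP6, each without overlap and each with the same exact permutation p = 0.1. In normalized counts, DUSP1, DUSP4 and DUSP6 were each higher, and DUSP5 lower, in every si-CITED2 sample than in any si-Control sample. The separation of these ratios to DUSP5 and their exact p were fixed by that and are no further support.

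There are 10 MAP kinase phosphatases with a kinase-interacting region, and the other 6 are DUSP2, DUSP7, DUSP8, DUSP9, DUSP10 and DUSP16. Of the 5 that could be tested, 1 rose, 0 fell and 4 did not pass, and 1 of 5 is near the 17.4% of all tested genes that passed. The count of 0 lower also held at an unadjusted p under 0.05, with DESeq2 and in the other 12 alternative fits. As 8.09% of all tested genes were lower, 0 of 5 is near that share too. DUSP7, a cytoplasmic ERK phosphatase closely related to DUSP6, was the 1 that rose. It was at 212, 201 and 207 normalized counts in si-Control and at 283, 344 and 317 in si-CITED2, with a log2 fold change of 0.61 (SE 0.11, adjusted p = 0.000629, edgeR). DUSP9, the third of these cytoplasmic ERK phosphatases, had a log2 fold change of -0.14 (95% interval -0.48 to 0.21, adjusted p = 0.638, edgeR). The JNK and p38 phosphatases DUSP8, DUSP10 and DUSP16 had log2 fold changes of -0.03, 0.31 and 0.12 with adjusted p of 0.944, 0.209 and 0.412 (edgeR). DUSP2 had 1 to 5 counts in a sample and was not tested.

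Taken per length and added together, the transcripts of the 10 phosphatases gave sums that overlapped between the groups, while their makeup differed. The sum was 43.4, 43.0 and 44.4 normalized CPM per kilobase in si-Control against 44.5, 43.7 and 42.6 in si-CITED2 (means 43.6 ± 0.700 and 43.6 ± 0.943, SD, n = 3, exact permutation p = 1). Over DUSP1, DUSP4, DUSP5 and DUSP6 alone the sum was 35.1, 34.9 and 36.2 in si-Control against 34.5, 34.8 and 33.0 in si-CITED2, lower in every si-CITED2 sample (difference -1.32, exact permutation p = 0.1). This separation rests on the division by length: with normalized counts not so divided, the sums over these 4 overlapped between the groups. Of the sum over all 10 phosphatases, DUSP5 supplied 51.3% ± 0.388 in si-Control against 28.8% ± 0.269 in si-CITED2 (SD, n = 3, exact permutation p = 0.1). DUSP1 supplied 17.8% ± 0.817 and 33.1% ± 0.686 (SD, n = 3, exact permutation p = 0.1). The shares of DUSP4 (6.65% and 9.41%), DUSP6 (5.38% and 6.87%) and DUSP7 (3.57% and 5.43%) were also higher in every si-CITED2 sample. As the sums over all 10 were alike, the separation of these shares and their exact p followed from the gene-level values above. They are no further support. These sums depend on the gene length: without division by length, the DUSP1 share differed by 8.52 percentage points rather than 15.3, the DUSP5 share by -18.9 rather than -22.5, and the sum over all 10 by 4.34%.

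**Figure D2:**
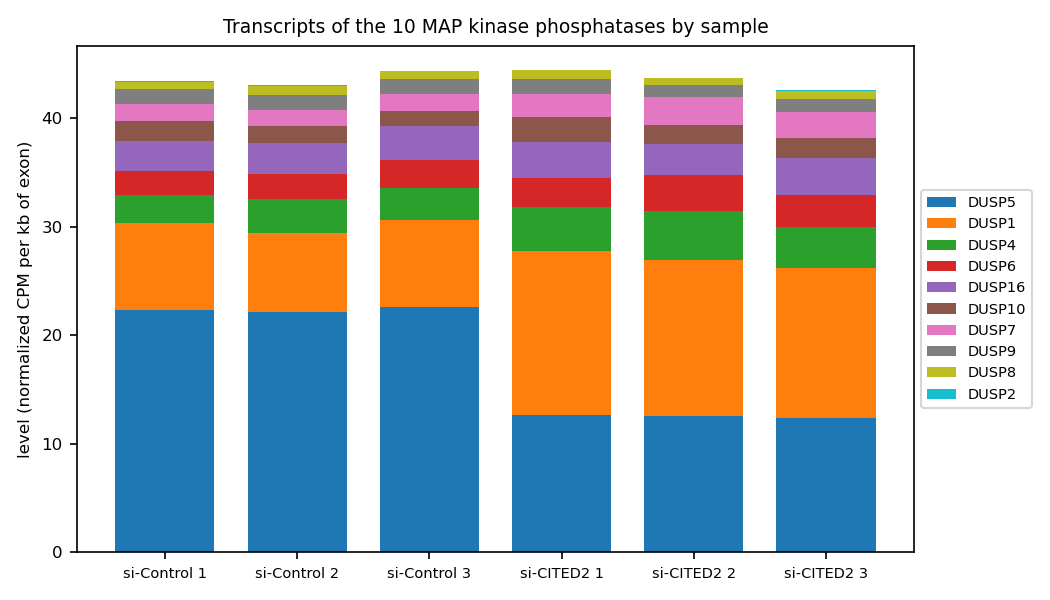
Stacked bars of the transcript level of the 10 MAP kinase phosphatases in each of the 6 samples (vertical axis, normalized CPM per kilobase of exon, starting at 0; 1 colour per gene). The bars are of like height, 42.6 to 44.5, while the DUSP5 part is smaller and the DUSP1 part is larger in each of the 3 si-CITED2 samples.

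The Sprouty transcripts went down or did not pass. SPRY2, which binds the ubiquitin ligase CBL and interferes with signals from receptor to RAS, is encoded at chr13:80335976-80340951 on the minus strand. It was at 295, 317 and 261 normalized counts in si-Control and at 243, 212 and 221 in si-CITED2, with the lowest si-Control sample a little above the highest si-CITED2 sample. The log2 fold change was -0.38 (SE 0.11, adjusted p = 0.0244, edgeR). As for DUSP6, the call was lost without si-Control replicate 1 (adjusted p = 0.0599), si-Control replicate 2 (0.1415), si-CITED2 replicate 2 (0.103) or si-CITED2 replicate 3 (0.0756), the direction being kept in each.

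SPRY1, at chr4:123396795-123403760 on the plus strand, had the lowest counts of the 10. The counts as deposited were 99, 73 and 56 in si-Control against 38, 58 and 43 in si-CITED2, and the normalized counts were 88.0, 58.8 and 65.9 against 46.1, 55.4 and 47.1. The groups did not overlap, but si-Control replicate 1 stood above the other 2 of its group. The log2 fold change was -0.51 (95% interval -0.95 to -0.07, adjusted p = 0.108, edgeR), and without si-Control replicate 1 it was -0.32. At 38 counts, the counting error is 16.2% of the value, and the SD of the si-Control group was 21.5% of its mean. SPRY4, at chr5:142310427-142326455 on the minus strand, was at 421, 402 and 471 normalized counts in si-Control and at 487, 427 and 457 in si-CITED2. These samples overlapped, and the log2 fold change was 0.09 (95% interval -0.10 to 0.27, adjusted p = 0.581, edgeR).

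SPRY2 and SPRY4 are known as related inhibitors of the same step, and their ratio within a sample differed between the groups. The log2 ratio of SPRY2 to SPRY4, per length, was 0.60, 0.77 and 0.26 in si-Control against 0.11, 0.10 and 0.07 in si-CITED2. All si-Control values were above all si-CITED2 values (difference -0.45, exact permutation p = 0.1). Which of the pair is higher depends on the division by length. In normalized counts not divided by length, SPRY4 was above SPRY2 in every sample (means 431 against 291 in si-Control, 457 against 225 in si-CITED2). The log2 ratio of SPRY2 to SPRY1 overlapped between the groups (means 2.44 ± 0.35 and 2.57 ± 0.23, SD, n = 3, exact permutation p = 0.8). The summed level of the 3 Sprouty transcripts was 7.79, 7.66 and 7.40 normalized CPM per kilobase in si-Control against 7.04, 6.32 and 6.55 in si-CITED2 (exact permutation p = 0.1).

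The 250 bases before the farthest upstream RefSeq starts of SPRY1 and SPRY2 are shown because these were the Sprouty genes with the lower values in si-CITED2. They lie at chr4:123396545-123396794 (plus strand) and chr13:80341127-80341376 (minus strand) of GRCh38.p14, outside annotated exons. They are printed without capitals, since neither held any of the letters searched in DUSP1 other than 2 GC boxes in the SPRY2 window:
SPRY1 upstream: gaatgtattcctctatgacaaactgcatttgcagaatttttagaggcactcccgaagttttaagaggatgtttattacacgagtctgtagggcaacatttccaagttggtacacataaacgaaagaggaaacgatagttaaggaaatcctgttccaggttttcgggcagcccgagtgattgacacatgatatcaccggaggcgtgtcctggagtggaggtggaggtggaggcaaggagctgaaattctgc
SPRY2 upstream: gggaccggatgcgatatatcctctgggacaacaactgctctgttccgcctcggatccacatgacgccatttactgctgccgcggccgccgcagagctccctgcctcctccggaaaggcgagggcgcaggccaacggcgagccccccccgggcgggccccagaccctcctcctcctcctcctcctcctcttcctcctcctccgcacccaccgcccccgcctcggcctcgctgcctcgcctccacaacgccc

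The windows differed in base composition, with 45.6% G or C in SPRY1, 70.4% in SPRY2 and 74.4% in DUSP1. A second SPRY1 start had 1 match to CCGGAAG, 61 to 67 bases before it, in a window that overlaps annotated SPRY1 exons. That motif was present in 8.52% of all windows. Counts per gene symbol do not separate the starts of 1 gene. RefSeq windows were at hand for 7 of the 10 genes, 11 in all, and those of DUSP4, DUSP5 and ETV5 were not analysed here.

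The SPRED transcripts moved little. SPRED1, which brings the RAS GTPase-activating protein NF1 to the membrane, lies at chr15:38252326-38357249 on the plus strand and was at 1241, 1239 and 1317 normalized counts in si-Control and at 1446, 1443 and 1499.9 in si-CITED2. The groups were separate and the log2 fold change was 0.21 (SE 0.056, adjusted p = 0.0151, edgeR), a rise of 15.7%. It did not pass without si-Control replicate 2 (adjusted p = 0.0724) or si-CITED2 replicate 3 (0.0750). SPRED2, the related protein encoded at chr2:65310851-65432637 on the minus strand, was at 1272, 1357 and 1212 in si-Control and at 1463, 1436 and 1368 in si-CITED2. Its groups were also separate, by a small gap, and its log2 fold change of 0.15 did not pass (95% interval 0.02 to 0.28, adjusted p = 0.105, edgeR). The log2 ratio of SPRED1 to SPRED2 overlapped between the groups (means -0.70 ± 0.13 and -0.64 ± 0.080, SD, n = 3, exact permutation p = 0.4, where 0.1 is the smallest p possible). That one passed and the other did not was thus not shown to be a difference between them.

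ETV5, at chr3:186046308-186110318 on the minus strand, is a transcription factor rather than a brake. It was at 2171, 2443 and 2383 normalized counts in si-Control and at 2646, 2739 and 2599.9 in si-CITED2. All si-CITED2 samples were higher, with a log2 fold change of 0.19 (SE 0.056, adjusted p = 0.0252, edgeR). The adjusted p was 0.0770 without si-Control replicate 1, 0.124 without si-CITED2 replicate 2 and 0.05015 without si-CITED2 replicate 3. Its relative ETV4 had a like value, a log2 fold change of 0.18 (SE 0.060, adjusted p = 0.0463, edgeR), which did not pass in 7 of the 13 alternative fits. In GENCODE 29, ETV5 shares 164 exonic bases with DGKG on the same strand, and how reads there were assigned is not given in the sources used here. ETV1 never exceeded 4 counts in a sample and was not tested.

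**Figure D3:**
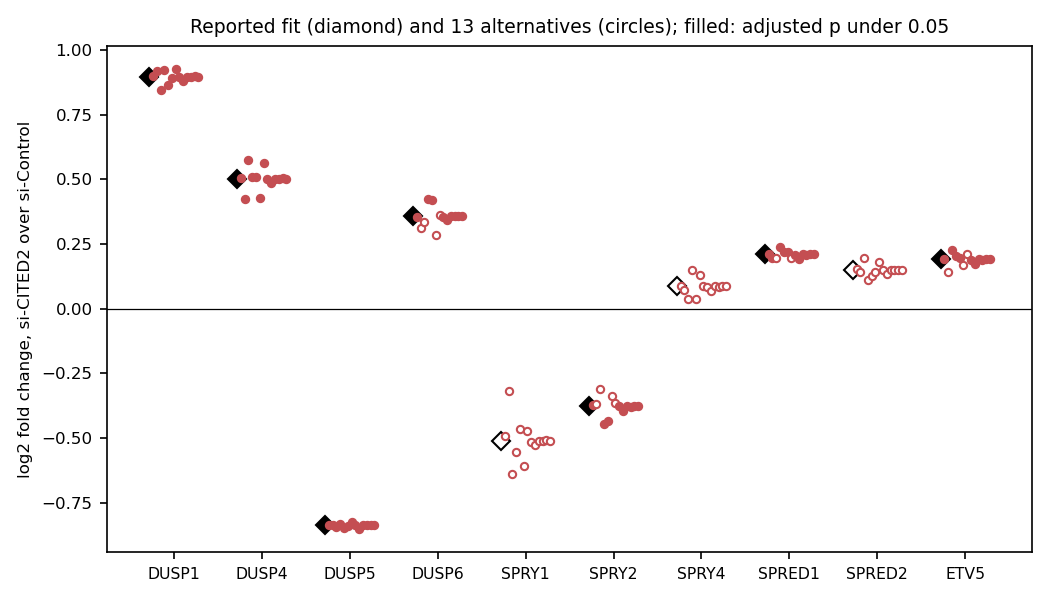
Log2 fold change of each of the 10 transcripts (vertical axis, si-CITED2 over si-Control) in the reported fit (black diamonds) and in 13 alternative fits (red circles), filled where the adjusted p was under 0.05. DUSP1, DUSP4 and DUSP5 are filled in all 13, DUSP6, SPRY2, SPRED1 and ETV5 in 9 to 11, and SPRY1, SPRY4 and SPRED2 in none.

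The order of the 10 levels, per length, changed at the top. Several places in both groups, those of DUSP1 and DUSP5 among them, rest on the division by length. With counts not divided by length, ETV5 was above DUSP5 in si-Control as well (2171 to 2443 against 1365 to 1391 normalized counts). On that scale DUSP4 and SPRY4 (means 496 and 431) were above DUSP1 and SPRY2 (369 and 291) in si-Control. In si-CITED2, SPRED1 and SPRED2 (means 1463 and 1423) were above DUSP5 (772). In si-Control, DUSP5 was the most abundant at 22.4 ± 0.206 normalized CPM per kilobase (SD, n = 3), ahead of ETV5 (17.1 ± 1.05), SPRED2 (10.5 ± 0.602), DUSP1 (7.77 ± 0.441) and SPRED1 (6.50 ± 0.228). Then came SPRY2 (4.07), DUSP4 (2.90), SPRY4 (2.79), DUSP6 (2.35) and SPRY1 (0.759), and the only neighbours whose samples overlapped were DUSP4 and SPRY4. In si-CITED2, ETV5 was first at 19.5 ± 0.520, followed by DUSP1 (14.4 ± 0.608), DUSP5 (12.5 ± 0.158), SPRED2 (11.7 ± 0.402) and SPRED1 (7.52 ± 0.165). DUSP4 (4.10), SPRY2 (3.15), DUSP6 (2.99), SPRY4 (2.96) and SPRY1 (0.531) came after them, and of these SPRY2 overlapped with DUSP6, and DUSP6 with SPRY4. Averaged over the 6 samples, the 10 transcripts lay between the 16.9 percentile (SPRY1) and the 82.5 percentile (ETV5) of the tested genes with a length.

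Other transcripts known to rise with ERK signalling, 8 in number, were mixed as well, with 3 higher, 1 lower and 4 that did not pass. Over all tested genes, 9.36% were higher and 8.09% lower. FOSL1, the AP-1 subunit FRA-1, fell from 5829 ± 143 to 3901 ± 109.6 normalized counts (SD, n = 3), a log2 fold change of -0.58 (adjusted p = 1.76e-07, edgeR). IER3, an immediate early gene, rose from 3305 ± 72.8 to 4722 ± 45.9 (0.51, adjusted p = 5.63e-07, edgeR), and the receptor EPHA4 rose from 26.8 ± 9.84 to 50.9 ± 3.38 (0.95, adjusted p = 0.0229, edgeR), from 18 to 56 counts in a sample. The EPHA4 call was lost without si-Control replicate 1 (adjusted p = 0.0770), si-CITED2 replicate 1 (0.0628) or si-CITED2 replicate 2 (0.0857). CCND1, which encodes cyclin D1 and is named here after its value was seen, rose by a log2 fold change of 0.40 (adjusted p = 7.05e-06, edgeR). The others, PHLDA1, EPHA2, EGR1 and LIF, had log2 fold changes of 0.01, 0.08, 0.15 and 0.22 with adjusted p of 0.916, 0.378, 0.218 and 0.0720 (edgeR). The median of the 8 was 0.19.

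Transcripts of the cascade itself stayed closer to 0. Of 18 genes from the adaptors to ERK, 2 rose, 0 fell and 16 did not pass, beside 9.36% higher and 8.09% lower over all tested genes. The 2 of 18 that rose are near that share. They were SOS2, a RAS exchange factor (log2 fold change 0.30, adjusted p = 0.000358, edgeR), and NRAS (0.24, adjusted p = 0.00436, edgeR). The median of the absolute log2 fold changes of the 18 was 0.04, against 0.14 over all tested genes, which were not matched to them by count level. The kinase genes MAP2K1 and MAP2K2, which encode MEK, and MAPK3, which encodes ERK1, had log2 fold changes of 0.03, 0.03 and -0.04, with adjusted p of 0.753 to 0.757 (edgeR). None of the 4 FGF receptors passed, the largest absolute values being 0.33 for FGFR2 (adjusted p = 0.554) and -0.13 for FGFR3 (adjusted p = 0.707, edgeR). The alternative fits, DESeq2 among them, also called 0 of the 4 receptors in either direction and 0 cascade genes lower. At an unadjusted p under 0.05 there were 0 receptors and 1 lower cascade gene, HRAS (log2 fold change -0.17, adjusted p = 0.101, edgeR), named after its value was seen.

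Of 11 other brakes on the cascade, 4 rose, 1 fell and 6 did not pass, beside 9.36% higher and 8.09% lower over all tested genes. RASA2, a RAS GTPase-activating protein, rose from 913 ± 82.0 to 1398 ± 93.6 normalized counts (SD, n = 3), a log2 fold change of 0.62 (adjusted p = 1.13e-05, edgeR). The remaining calls are named after their values were seen. They were RASA1, of the same activity (0.34, adjusted p = 0.000222), PEA15, which keeps ERK in the cytoplasm (0.25, adjusted p = 0.00149), and CBL (0.18, adjusted p = 0.0496), which rose, and the decoy receptor FGFRL1 (-0.33, adjusted p = 0.000322), which fell (all edgeR). CBL did not pass in 7 of the 13 alternative fits, with the replicate block (adjusted p = 0.0843), with library size in place of TMM (0.0813), and without any 1 sample other than si-CITED2 replicate 2 (0.0753 to 0.209). NF1, the partner of SPRED1, had a log2 fold change of 0.10 (adjusted p = 0.241, edgeR). Among the other MAP kinases, 7 of 8 were tested, beside the same 9.36% higher and 8.09% lower over all tested genes. MAPK13 and MAPK8 rose (0.20 and 0.17, adjusted p = 0.0189 and 0.0488, edgeR) and MAPK12 fell (-0.33, adjusted p = 0.00860, edgeR). MAPK12 and MAPK13 encode p38 kinases and MAPK8 encodes JNK1, which was also named after its value was seen. MAPK8 did not pass in 9 of the 13 alternative fits. Without si-CITED2 replicate 1 or si-CITED2 replicate 2 neither of the 2 rises passed, and without si-Control replicate 2 the fall did not.

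**Figure D4:**
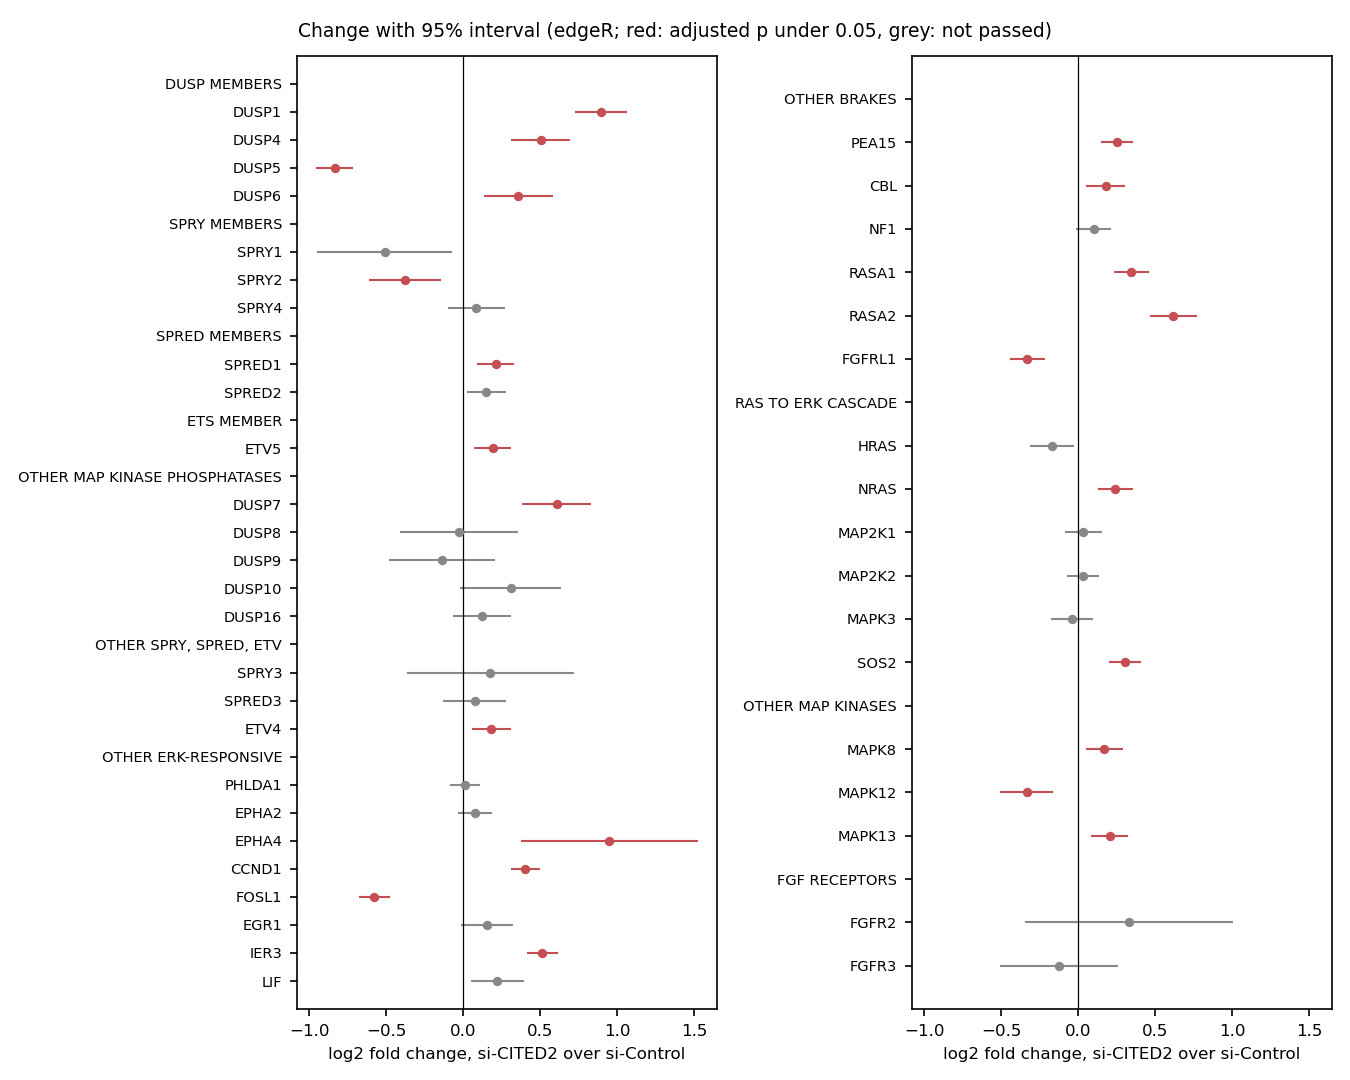
Log2 fold change (horizontal axes, si-CITED2 over si-Control) with its 95% interval for the 10 ERK feedback transcripts and, at left, the tested genes of the lists closest to them and, at right, the named genes of the other lists, red where the adjusted p was under 0.05. The phosphatases spread from -0.84 (DUSP5) to 0.90 (DUSP1), while of the cascade genes shown at right SOS2 and NRAS are red.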

How the data were processed

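RNA-seq of 6 PC3 cultures was analysed, 3 per group, grouped by sample title. The deposited values are raw read counts for each gene symbol, in a separate file for every sample. The submitters' processing notes name TopHat, edgeR and hg19 without roles, and the counting program, annotation and strand setting are not given in the sources used here. Of 25737 rows, the one with most counts was kept for each of 24462 symbols, which left out 0.0821% of counts. Genes passing filterByExpr (16314) were tested with edgeR 4.0.16 in R 4.3.3 (TMM, glmQLFit, glmQLFTest, no block, Benjamini-Hochberg). The SE comes from the F statistic, and the 95% intervals are per gene and not adjusted. Total counts were 19508925 to 28936374, and no 2 replicates of a group agreed within counting noise (chi-square over its degrees of freedom at least 2.86). Where cultures were not separate, p-values measure technical spread only.

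Levels per length used all exon bases of a gene in GENCODE 29, since the build of the files is hg19 and no annotation of it was used here, and 15077 tested genes had a length. Coordinates are from GENCODE 29 or RefSeq promoter windows (GRCh38.p14), searched on both strands. Members and gene lists were chosen with earlier results of these data known. The text names all 10 members, CITED2, list genes past an adjusted p of 0.05 with an absolute log2 fold change of at least 0.5, otherwise the 2 largest of a list, and the 5 genes most like DUSP6 and SPRY4. Other list genes are named outside this rule, among them DUSP8, DUSP9, DUSP10, DUSP16, PHLDA1, EPHA2, EGR1, LIF, MAP2K1, MAP2K2, MAPK3 and NF1. In simulated counts for this comparison over 16152 genes, edgeR recovered 73 of 100 genes changed by 0.5 (log2) and 100 of 100 changed by 1, with 15 false calls. The changed genes were drawn only from those above a set mean count. This recovery therefore does not cover genes of low count or smaller changes. Alternatives were a replicate block, leaving out each sample, DESeq2 1.42.0, other scalings, filters and repeated symbols. Values of some genes of the lists are not reported here.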

Additional observations from a re-analysis of the deposited data

How the results depend on the processing

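All 10 members kept their direction in all 13 alternative fits, and 3 of the 7 calls (DUSP1, DUSP4 and DUSP5) were kept in every one. The other 7 alternatives, which used all 6 samples, each gave 5 higher and 2 lower members. Leaving out 1 sample, which also leaves fewer samples to estimate the spread, gave 2 to 5 higher and 1 to 2 lower members. The ranges without 1 sample were 0.85 to 0.93 for DUSP1, 0.42 to 0.58 for DUSP4, -0.85 to -0.82 for DUSP5, 0.28 to 0.42 for DUSP6, -0.45 to -0.31 for SPRY2, 0.19 to 0.24 for SPRED1, 0.14 to 0.23 for ETV5 and 0.17 to 0.29 for CITED2 (log2 fold changes). With library size in place of TMM, CITED2 was 0.22 and did not pass. In the list of SPRY3, SPRED3, ETV1 and ETV4, 3 genes were tested and 1 (ETV4) was higher in the reported fit, beside 9.36% of all tested genes. This higher count was 0 with the replicate block, DESeq2 or library size, and 0 to 1 without 1 sample. That of the other MAP kinases, 2 as reported, was 1 with the replicate block, DESeq2, library size or no filter and 0 to 1 without 1 sample, and their lower count was 0 to 1. The lower count of the other brakes was 1 to 2 without 1 sample. Lengths were varied after the data had been seen. With the longest coding transcript as length, the DUSP5 share of the phosphatases differed by -21.9 percentage points and the DUSP1 share by 13.7, and with no division by length these were -18.9 and 8.52 and the sum differed by 4.34%. Replicate numbers 1 to 3 recur in both groups, but same-numbered samples did not deviate together (r of -0.038, 0.0336 and -0.0109 across genes). With the replicate number as a block, 1405 genes were higher and 1154 lower, against 1527 and 1319, and the 7 called members were the same genes. Low counts limit SPRY1 most.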

Other observations

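The genes whose log2 CPM followed DUSP6 most closely over the 6 samples, outside the 10 transcripts, were DCAF5, LINC00649, LRCH2, BEND4 and AGAP3, with Pearson's r of 0.996, 0.994, 0.991, 0.990 and 0.987. Of these, LINC00649 passed the test between the groups (log2 fold change 0.59, adjusted p = 0.0145, edgeR). Those that followed SPRY4 most closely were VRK2, HIC1, FAM174B, COPE and ROPN1B, with r of 0.994, 0.991, 0.989, 0.985 and 0.985, and none of these 5 passed (adjusted p of 0.495 to 0.776, edgeR). Such values describe these 6 samples only, which share the 2 groups, and the genes are the 5 highest of the 16304 compared for each.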
